A study of Drosophila melanogaster with 32 samples.

Results

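The genes described here are 10 Drosophila serine protease genes: yip7 and 9 Jonah genes, Jon25Bi, Jon25Bii, Jon25Biii, Jon65Aiii, Jon65Aiv, Jon66Cii, Jon99Ci, Jon99Cii and Jon99Ciii. They were picked by name from the 14161 genes of the count table, as midgut digestive proteases, after earlier results of these data were known. Their values in every comparison are therefore a description, and no p-value is given for them. The table holds 16 genes with a Jonah name, and the other 7 were kept apart for comparison.

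Jonah genes encode secreted serine endopeptidases of the trypsin and chymotrypsin fold, which digest dietary protein in the gut lumen. Like other enzymes of this fold they are made as inactive precursors with a signal peptide. Their RNA is best known from the larval and adult midgut, where enterocytes make them. The gene yip7 (yippee interacting protein 7) was named for a protein interaction with Yippee and encodes a protease of the same family. Most Jonah genes carry the cytological band of their tandem cluster in their name.

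RNA was sequenced from brains dissected from larvae of instar 3, with 500 brains for each preparation, in 4 groups of 2 libraries. Wild-type animals carried ipcGal4 and UASRpl10Ab::GFP, so that a GFP-tagged ribosomal protein was made wherever the driver ipcGal4 was active. The ato animals carried the same driver and transgene together with the allele ato1, given as an ato loss of function. For each genotype, 10% of the homogenate gave the input libraries, which sample all cells of the dissected tissue, and an anti-GFP immunoprecipitation of the remainder gave the IP libraries. All 4 groups share the driver and the tagged protein. The labels name the T4 and T5 neurons of the optic lobe as the target of the pulldown and do not list the other cells in which the driver is active. They do not say whether an input and an IP with the same number came from the same homogenate, or what separates replicate 1 from replicate 2 of a group.

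The 8 libraries held 7780123 to 12238648 counts. The ato gene itself, which encodes the proneural factor Atonal, had 158 and 131 counts in wild-type input 1 and 2, 124 and 149 in the ato inputs, 120 and 127 in the wild-type IPs and 108 and 89 in the ato IPs. In CPM the inputs stood at 12.9 and 12.8 in wild type and at 15.6 and 15.05 with ato1, and the IPs at 12.7 and 17.2 against 13.3 and 11.1, so the ato transcript was not lost and its level does not check which libraries carry the allele. The tissue label was checked on 8 neuronal genes (elav, n-syb, brp, Syt1, Cha, para, futsch and fne): all 8 had counts in every library, with a summed level of 1081 to 2035 CPM (counts scaled to a common library size).

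The 10 protease genes were nearly silent in wild type and present in all 4 ato libraries. Their counts summed to 9 and 2 in the wild-type inputs, to 477 and 2174 in the ato inputs, to 4 and 25 in the wild-type IPs, and to 193 and 969 in the ato IPs. In CPM these sums were 0.736 and 0.195 for wild-type input, 60.0 and 219.5 for ato input, 0.424 and 3.38 for the wild-type IPs, and 23.7 and 120.3 for the ato IPs. Every ato library lay above every wild-type library. The mean of the ato inputs (139.8 ± 112.8 CPM, SD, n = 2) was 300.1-fold that of the wild-type inputs (0.466 ± 0.382 CPM). The mean of the ato IPs (72.01 ± 68.4 CPM) was 37.9-fold that of the wild-type IPs (1.90 ± 2.09 CPM). The SD was as large as the mean, or nearly so, in each group, so these ratios of means are imprecise. On the log2 scale the input ratio of 8.23 ranged from 7.01 without ato input 2 to 9.48 without wild-type input 1. The IP ratio of 5.24 ranged from 3.69 without ato IP 2 to 7.39 without wild-type IP 2. In whole-brain RNA, more cells that make a transcript and more RNA per cell cannot be told apart.

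**Figure D1:**
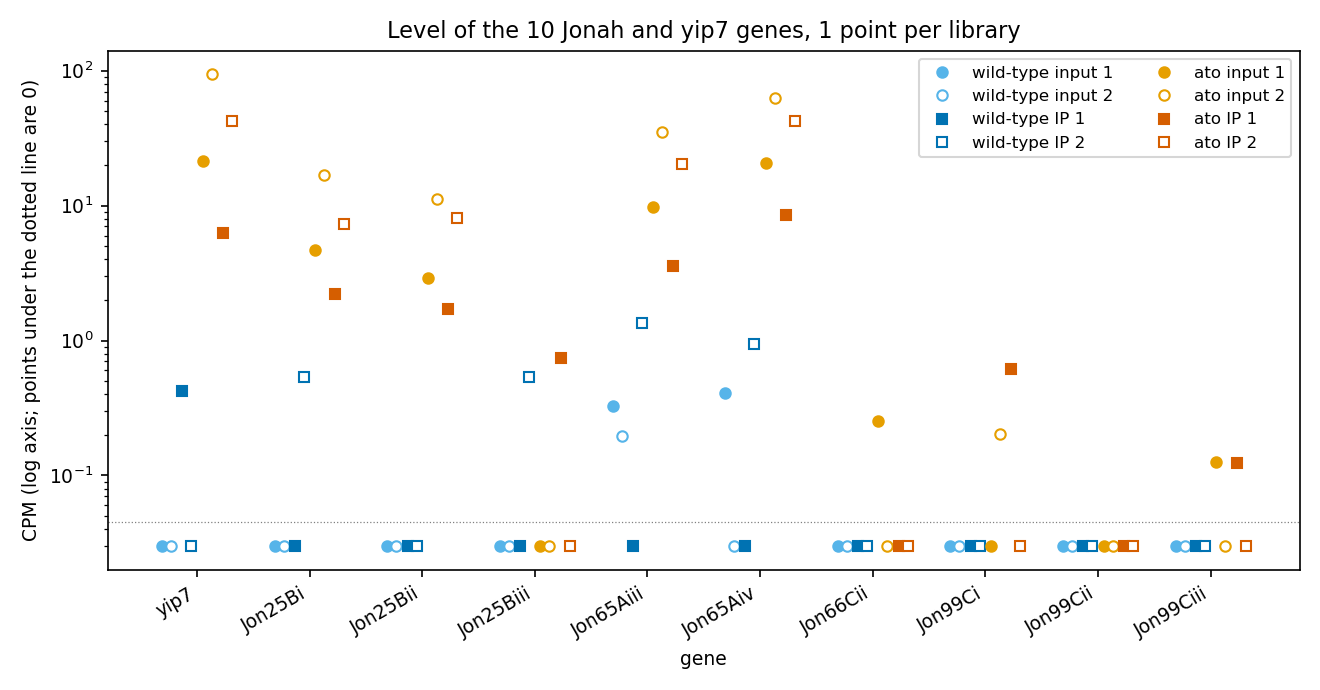
Level in CPM (log axis) of each of the 10 genes in each of the 8 libraries, 1 point per library, with libraries at 0 drawn under the dotted line. The signal lies in 5 genes of the ato libraries, with yip7 reaching 93.9 CPM in ato input 2, while no wild-type library exceeds 1.35 CPM for any of the 10.

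Of the 10 genes, 5 passed the filter on low counts that preceded the test over all genes: yip7, Jon65Aiv, Jon65Aiii, Jon25Bi and Jon25Bii. They passed it through the ato libraries, where they are high, and so had to differ from wild type. These 5 genes held 99.4% and 99.9% of the summed counts in ato input 1 and 2, and 93.8% and 100% in ato IP 1 and 2. All 5 were called higher in ato input than in wild-type input by edgeR's quasi-likelihood test (adjusted p below 0.05), where 4.64% of the 10224 genes tested were called higher. All 5 were also called higher in ato IP than in wild-type IP, where the share over all genes was 2.82%. For each of the 5, both ato inputs lay above both wild-type inputs, as they did for 27.6% of genes tested, and both ato IPs above both wild-type IPs, as for 21.7%. Nothing is read from these counts, since the genes were chosen with such results in view. In the IPs the number called fell to 3 without wild-type IP 1, to 2 without ato IP 2 and to 2 by DESeq2. Groups were of 2 libraries that the labels number as replicates, so the test measures the spread between these libraries only.

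The gene yip7 lies at 3L:6028330-6029279 on the plus strand in dm3, with 2 exon records of 894 bases in all. It had 0 counts in both wild-type inputs and 171 and 930 in the ato inputs. It had 4 and 0 counts in the wild-type IPs and 51 and 342 in the ato IPs. In CPM the ato inputs stood at 21.5 and 93.9 and the ato IPs at 6.26 and 42.5, so every ato library was above every wild-type library and the second of each pair was the high one. The mean of the ato inputs was 57.7 ± 51.2 CPM (SD, n = 2). From the summed counts of both ato inputs, set against a floor of 3 counts over both wild-type inputs, the difference is at least 462-fold. This bound covers counting error in wild type only and leaves out the gap between the ato inputs. The IP comparison gave 97.7-fold (log2 6.61 ± 1.69, SE), against 4 counts that all came from wild-type IP 1.

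Jon65Aiv, a Jonah endopeptidase gene of the 65A cluster, lies at 3L:6032257-6033246 on the plus strand, with 2 exon records of 913 bases in all. Its counts were 5 and 0 in the wild-type inputs, 165 and 617 in the ato inputs, 0 and 7 in the wild-type IPs, and 69 and 340 in the ato IPs. The genotypes did not overlap in either fraction. The ato inputs (20.8 and 62.3 CPM) were 177.9-fold higher than the wild-type inputs (log2 7.47 ± 1.38, SE). The ato IPs (8.47 and 42.2 CPM) were 57.9-fold higher than the wild-type IPs (log2 5.86 ± 1.20).

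Jon65Aiii, its neighbour in the same cluster, lies at 3L:6043874-6044798 on the plus strand, with 2 exon records of 866 bases in all. It was the member with the most wild-type counts, 4 and 2 in the inputs and 0 and 10 in the IPs. The ato inputs had 78 and 348 counts and the ato IPs 29 and 163. Again no ato library reached down to a wild-type library of the same fraction. The difference was 80.7-fold in the inputs (log2 6.34 ± 1.22, SE) and 18.9-fold in the IPs (log2 4.24 ± 1.04).

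Jon25Bi and Jon25Bii, endopeptidase genes of the 25B cluster on the minus strand, were the lower pair. Jon25Bi, at 2L:4954071-4955353 in 1 exon record of 1283 bases, had 0 counts in both wild-type inputs, 37 and 166 in the ato inputs, 0 and 4 in the wild-type IPs, and 18 and 59 in the ato IPs. Jon25Bii, at 2L:4952250-4953134 in 1 exon record of 885 bases, had 0 counts in all 4 wild-type libraries, 23 and 111 in the ato inputs, and 14 and 65 in the ato IPs. Both genes were thus separated by genotype in the inputs and in the IPs. The ato inputs were at least 85.1-fold higher for Jon25Bi and at least 56.2-fold higher for Jon25Bii. In the IPs the difference was 18.3-fold for Jon25Bi (log2 4.20 ± 1.23, SE) and at least 27.3-fold for Jon25Bii. The lower bounds rest on summed counts and leave out the gap between the ato libraries of a fraction.

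The other 5 genes were at or close to 0. Jon25Biii, the third gene of the 25B cluster (2L:4949947-4950763, minus strand), had 0 counts in all inputs of both genotypes, but ato IP 1 had 6 and wild-type IP 2 had 4. Jon66Cii (3L:8385958-8386749, minus strand) had 2 counts, both in ato input 1. Of the 99C cluster, Jon99Ci (3R:25750948-25751907, minus strand) had 2 counts in ato input 2 and 5 in ato IP 1. Jon99Ciii (3R:25747931-25748823, plus strand) had 1 count in ato input 1 and 1 in ato IP 1, and Jon99Cii (3R:25749476-25750333, minus strand) had 0 in all 8 libraries. None of these 5 passed the filter or was tested. A count of 0 allows up to 3 counts, or 0.245 to 0.386 CPM depending on the library, and covers counting error only. These endopeptidase genes have close relatives within their clusters, and how reads that match several copies were counted is not fully stated, so the low values of single copies are uncertain.

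The 3 genes at 65A, which span 16469 bases, supplied most of the signal: 86.8% and 87.2% of the summed counts in ato input 1 and 2, and 77.2% and 87.2% in ato IP 1 and 2. The genes between and around them were at or near 0 in the ato inputs, apart from CG32406 and tan on either side. CG6462, which lies between yip7 and Jon65Aiv, had 0 counts in all 4 ato libraries and 8 in wild-type IP 2. Jon65Aii and Jon65Ai, the other Jonah genes of the cluster, had 0 counts in both ato inputs. In ato IP 1 and 2, Jon65Aii had 3 and 0 counts and Jon65Ai 4 and 12. CG10477, upstream of yip7, had 0 in both ato inputs and 2 in each ato IP. CG32406, which ends upstream of CG10477, had 176 and 178 counts in the ato inputs and 205 and 195 in the ato IPs, against 196 and 231 and 174 and 141 in the wild-type libraries. On the other side, tan, which encodes a hydrolase of carcinine and N-beta-alanyldopamine and is not a protease gene, had 502 and 566 counts in the ato inputs against 944 and 778 in the wild-type inputs. At 25B, over 5407 bases, Jon25Bi and Jon25Bii were detected in the ato inputs and Jon25Biii was not. The exons of none of the 10 genes overlap those of another gene in the table.

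**Figure D2:**
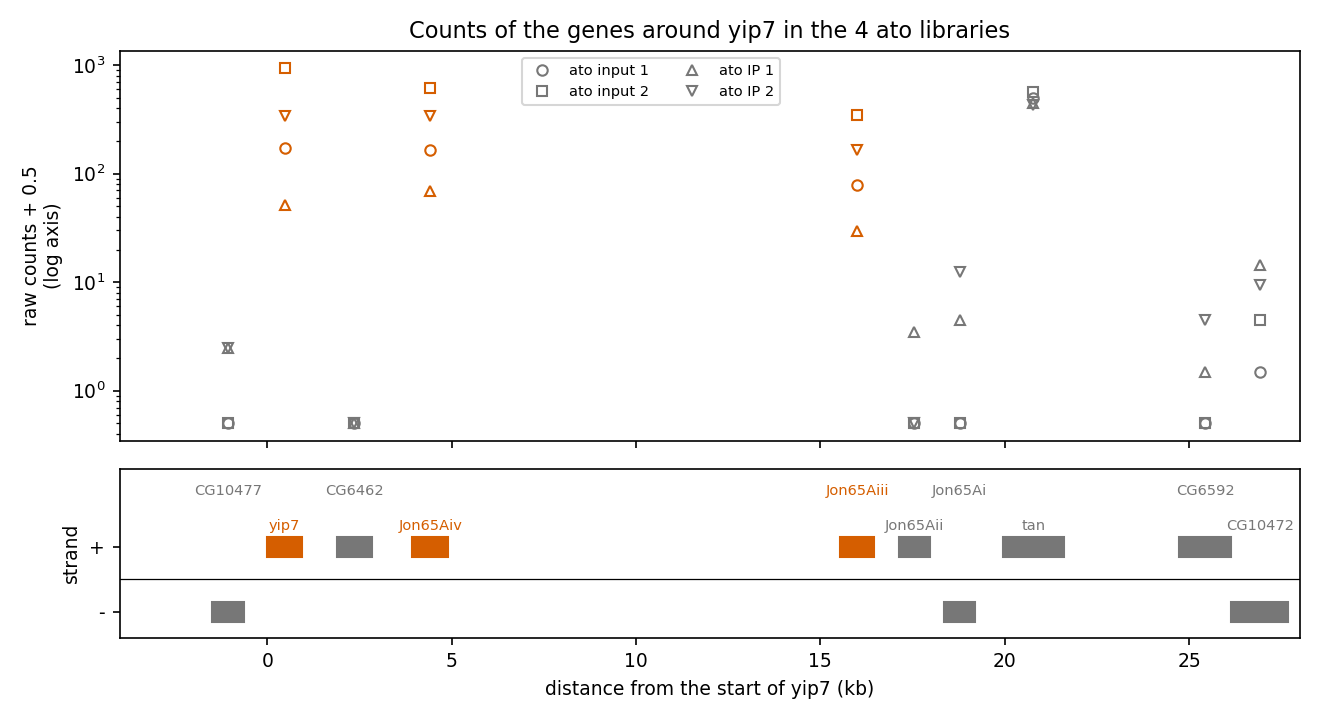
Raw counts plus 0.5 (log axis) of each gene around yip7 in the 4 ato libraries, against distance from the start of yip7 in kb, and below them the genes on their strands, with the 3 protease genes described here in orange. Among the genes drawn, these 3 and tan are those with more than 14 counts in an ato library.

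Among the 4 ato libraries the second of each fraction was the high one for all 5 genes. Ato input 2 exceeded ato input 1 by 4.37-fold for yip7, 3.0-fold for Jon65Aiv, 3.58-fold for Jon65Aiii, 3.60-fold for Jon25Bi and 3.87-fold for Jon25Bii. Ato IP 2 exceeded ato IP 1 by 6.79-fold for yip7, 4.99-fold for Jon65Aiv, 5.69-fold for Jon65Aiii, 3.32-fold for Jon25Bi and 4.70-fold for Jon25Bii. The 5 genes thus shifted together between libraries of the same label, while the median gene did not: over 9511 genes with counts in all 4 ato libraries the same ratios had medians of 0.996 and 0.998. The 4 sequencing runs of a library did not differ in this way. The summed counts were 115 to 126 per run in ato input 1, 502 to 576 in ato input 2, 32 to 55 in ato IP 1 and 196 to 296 in ato IP 2.

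Levels per kb of exon let the genes be ranked against each other. In ato input 1, yip7 stood at 24.1 CPM per kb, Jon65Aiv at 22.7, Jon65Aiii at 11.3, Jon25Bi at 3.63 and Jon25Bii at 3.27. In ato input 2 the same order held, at 105.0, 68.2, 40.6, 13.1 and 12.7 CPM per kb. In both ato IPs Jon25Bii ranked above Jon25Bi (1.94 and 1.72 CPM per kb in IP 1, 9.12 and 5.71 in IP 2). In ato IP 1 Jon65Aiv (9.27) also ranked above yip7 (7.0), and in ato IP 2 they stood at 46.3 and 47.5. The 3 genes at 65A ranked above both genes at 25B in all 4 libraries, whereas the order within yip7 and Jon65Aiv and within the 25B pair was not fixed. As means over ato inputs, the levels were 64.6 ± 57.3 CPM per kb for yip7, 45.5 ± 32.2 for Jon65Aiv, 26 ± 20.7 for Jon65Aiii, 8.35 ± 6.67 for Jon25Bi and 7.97 ± 6.64 for Jon25Bii (SD, n = 2). No neighbouring means in this order differ by more than the larger of their SDs. The level of yip7 exceeded that of 65.3% of tested genes in ato input 1 and of 91.2% in ato input 2, and of 34.0% and 84.2% in ato IP 1 and 2. The median gene stood between 12.6 and 13.6 CPM per kb in these 4 libraries.

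**Figure D3:**
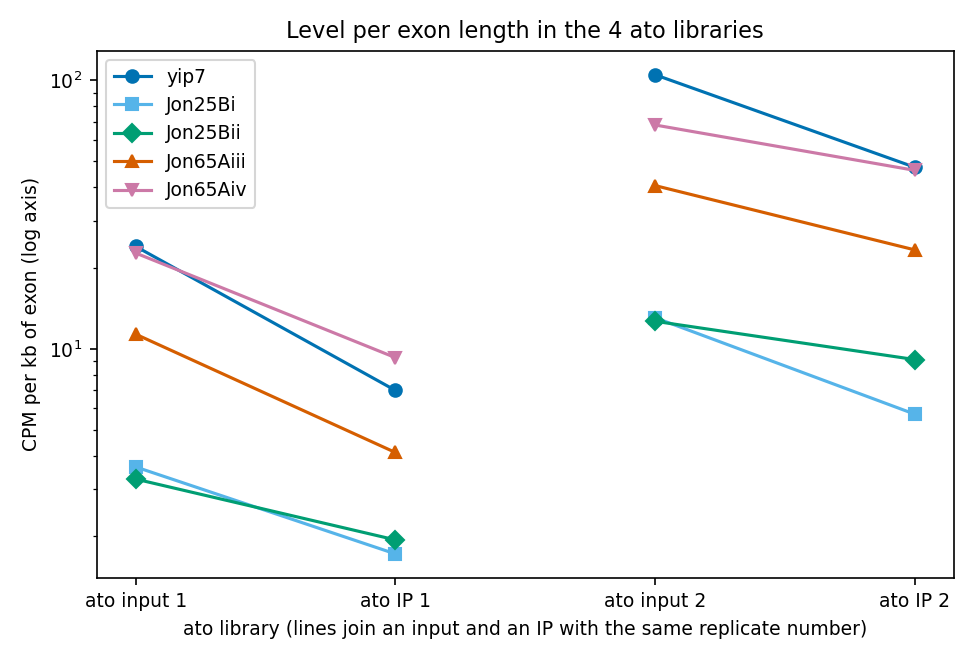
Level of the 5 tested genes in CPM per kb of exon (log axis) in the 4 ato libraries, with lines that join an input and an IP of the same replicate number, which the labels do not say came from 1 homogenate. All 5 genes are higher in the libraries numbered 2 than in those of the same fraction numbered 1.

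The make-up of the summed counts shifted less than the sum. In ato input 1, yip7 was 35.8% of the 10 genes' counts (95% exact binomial interval 31.5% to 40.3%), and in ato input 2 it was 42.8% (40.7% to 44.9%). In ato IP 1 it was 26.4% (20.4% to 33.2%) and in ato IP 2 it was 35.3% (32.3% to 38.4%). The interval of ato input 2 does not overlap that of ato input 1 or of either IP, while that of ato input 1 overlaps both IPs. The intervals cover counting error only. Jon65Aiv made up 34.6%, 28.4%, 35.8% and 35.1% in the same order of libraries, and Jon65Aiii 16.4%, 16.0%, 15.03% and 16.8%. The share of Jon65Aiii therefore ranged from 15.03% to 16.8% while the summed counts ranged from 193 to 2174. Jon25Bi made up 6.09% to 9.33% and Jon25Bii 4.82% to 7.25%.

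**Figure D4:**
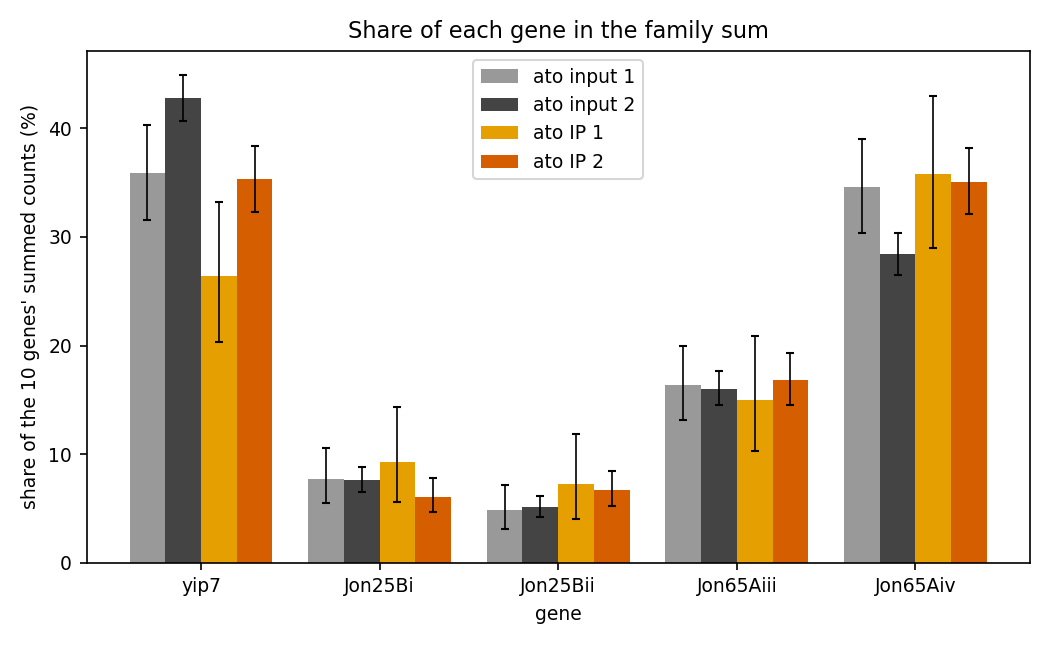
Share in percent of each of the 5 tested genes in the summed counts of the 10 genes, 1 bar per ato library, with exact 95% binomial intervals for counting error. The share of yip7 runs from 26.4% to 42.8%, and the other 4 genes keep the same order in every library apart from the 25B pair.

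All 5 genes were lower in the ato IPs than in the ato inputs with the same number, and the size of the difference varied. IP over input was 0.291 to 0.594 among libraries numbered 1 and 0.437 to 0.720 among those numbered 2. The fitted log2 differences, IP minus input, were -1.25 ± 0.64 for yip7, -1.17 ± 0.83 for Jon25Bi, -0.92 ± 0.72 for Jon65Aiii, -0.72 ± 0.61 for Jon65Aiv and -0.53 ± 0.88 for Jon25Bii (SE). Ato IP 2 (120.3 CPM for the sum) lay above ato input 1 (60.0 CPM), so the fractions overlapped. By edgeR 0 of the 5 were called, 0 had an unadjusted p below 0.05 and DESeq2 called 0, where 16.3% of all genes were called lower in ato IP. Without ato IP 2 the count called was 3, and it was 1 without ato input 1. Without ato input 2 the direction turned, and the log2 ratio of the summed levels went from -0.96 to 0.25. In wild type the sums were 11 counts over both inputs and 29 over both IPs, too few to rank the fractions. The wild-type ratio of 2.03 on the log2 scale became -0.13 without wild-type IP 2. For IP against input in wild type, edgeR called 0 of the 5, with 0 at an unadjusted p below 0.05 and 0 by DESeq2, where 35.7% of all genes were called in either direction. For the change of IP over input from wild type to ato, edgeR called 0 of the 5, with 1 at an unadjusted p below 0.05 and 0 by DESeq2, where it called 0 of the 10224 genes.

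Other genes for digestive enzymes were mostly scarce. The list held 52 genes (7 other Jonah genes, 15 of the trypsin family, 7 lysozymes, 13 amylases and maltases and 10 lipases), of which 9 passed the low-count filter. In ato input against wild-type input 3 of the 9 rose and 0 fell by edgeR, where 4.64% of all genes rose, with a median log2 difference of 2.25 against 0.01 over all genes. These 3 had 0 counts in both wild-type inputs and passed the filter through the ato libraries, so they could not fall. Nothing is read from their number, from their adjusted p-values or from the median. Jon74E, another Jonah endopeptidase gene, had 19 and 76 counts in the ato inputs and 0 in both wild-type inputs, at least 39.8-fold higher (edgeR adjusted p 0.00497). LysS, which encodes a digestive lysozyme, had 50 and 105 counts against 0 in both, at least 65-fold higher (adjusted p 0.000816). The trypsin gene betaTry had 12 and 17 counts against 0 in both, at least 12.2-fold higher (adjusted p 0.04999 in edgeR), and its call was lost when any library other than wild-type IP 2 was left out. DESeq2 called 4 of the 9, these 3 and the trypsin gene epsilonTry. The lysozyme and trypsin genes have near-identical copies, among which the counting could have split reads.

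In ato IP against wild-type IP, where 2.82% of all genes rose, 1 of the 9 rose: LysS, with 14 and 16 counts against 0 in both, at least 10.4-fold higher (edgeR adjusted p 0.0175). This call was lost without either wild-type IP or without ato IP 2. LysS had 0 counts in all 4 wild-type libraries and so passed the filter through the ato libraries alone. Nothing is read from its call or its adjusted p-value. The median of the list was 1.32 against -0.03 over all genes, and nothing is read from it. In ato IP against ato input, where 16.3% of all genes were called lower, 1 of the 9 fell, and nothing is read from that number. This was CG30359 of the maltase list (log2 -0.93 ± 0.23, adjusted p 0.0061 in edgeR), a call lost without ato input 1 or ato IP 2. It stood at 104 and 72.6 CPM in the ato inputs and 55.7 and 37.0 in the ato IPs. The median was -0.61 against 0.02. Jon74E was also called higher in the wild-type IPs (10 and 2 counts) than in their inputs (0 in both), at least 5.34-fold (edgeR adjusted p 0.0249), a call lost without either wild-type input or without wild-type IP 1. In that comparison 35.7% of all genes were called in either direction. For the difference of ratios edgeR called 0 of the 9, with 2 at an unadjusted p below 0.05, and DESeq2 also called 0. Of the other Jonah genes, Jon99Fi and Jon99Fii had 0 counts in all 8 libraries.

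Peritrophic matrix genes, whose products line the gut lumen, went both ways between genotypes, and those called were higher in ato. Of 8 genes 6 were tested, and 3 rose in ato input over wild-type input, where 4.64% of all genes rose. Gasp (mean 181 CPM in wild-type input, 149 in ato input) and Muc14A (1.68 and 0.832) were lower in ato input and not called. Peritrophin-A (0.644 and 2.82) was higher and not called. Peritrophin-15a had 14.8 and 0.0977 CPM in the wild-type inputs and 150 and 129 CPM in the ato inputs (log2 4.18 ± 0.70, edgeR adjusted p 0.00189, not called by DESeq2). Peritrophin-15b (log2 4.76 ± 0.84, adjusted p 0.00217) and the mucin-type gene Muc96D (log2 5.58 ± 0.76, adjusted p 0.000105) rose too. In the wild-type inputs Peritrophin-15b had 16 and 0 counts and Muc96D 11 and 0. Both passed the low-count filter through the ato libraries, where they are high, so nothing is read from their calls in either fraction. In the IPs, where 2.82% of all genes rose, 2 rose. They were Peritrophin-15a (3.52 ± 0.74, edgeR adjusted p 0.0106, not called by DESeq2) and Muc96D (3.36 ± 0.70, adjusted p 0.00708, lost without ato IP 2). Between replicates, the summed level of the list in ato input 2 was 0.880 of that in ato input 1, and in the IPs the same ratio was 1.13. The 3 genes called in the inputs were higher in ato IP 2 than in ato IP 1. They stood at 99.7 and 59.0 CPM for Peritrophin-15a, 3.35 and 1.96 for Peritrophin-15b and 13.9 and 6.13 for Muc96D. In ato input 2 and 1, Peritrophin-15a stood at 129 and 150 CPM, Peritrophin-15b at 18.3 and 19.4 and Muc96D at 26.1 and 20.9. Only Muc96D was thus higher in the second library of both fractions.

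Genes of midgut identity and enterocytes showed 0 calls between genotypes in edgeR, in the inputs or the IPs. The list holds GATAe, mex1, Myo31DF, Myo61F, lab, cad, nub, betaInt-nu, vn, fkh and esg, and 9 of the 11 were tested. At an unadjusted p below 0.05 there were 2 in the inputs and 1 in the IPs, and DESeq2 called 1 higher in the ato inputs, mex1, and 0 in the IPs. With 4.64% and 2.82% of all genes called higher, a count of 0 among 9 is near the background. The summed level was 272 to 297 CPM in the wild-type inputs, 246 to 269 in the ato inputs, 340 to 348 in the wild-type IPs and 298 to 309 in the ato IPs. Of the 11, 9 had counts in each wild-type input, and several, esg and nub among them, are also known from the nervous system. The genes nearest to defining the midgut, named after their values had been seen, were low. GATAe, a GATA factor of the endoderm, had 0 and 0 counts in the wild-type inputs, 0 and 2 in the ato inputs, 8 and 8 in the wild-type IPs and 4 and 2 in the ato IPs. The enterocyte gene mex1 had 1 and 1, 14 and 13, 15 and 43, and 20 and 35 in the same order, and the homeobox gene cad had 4 and 0 in the ato inputs, 8 and 2 in the ato IPs and 0 in all 4 wild-type libraries.

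**Figure D5:**
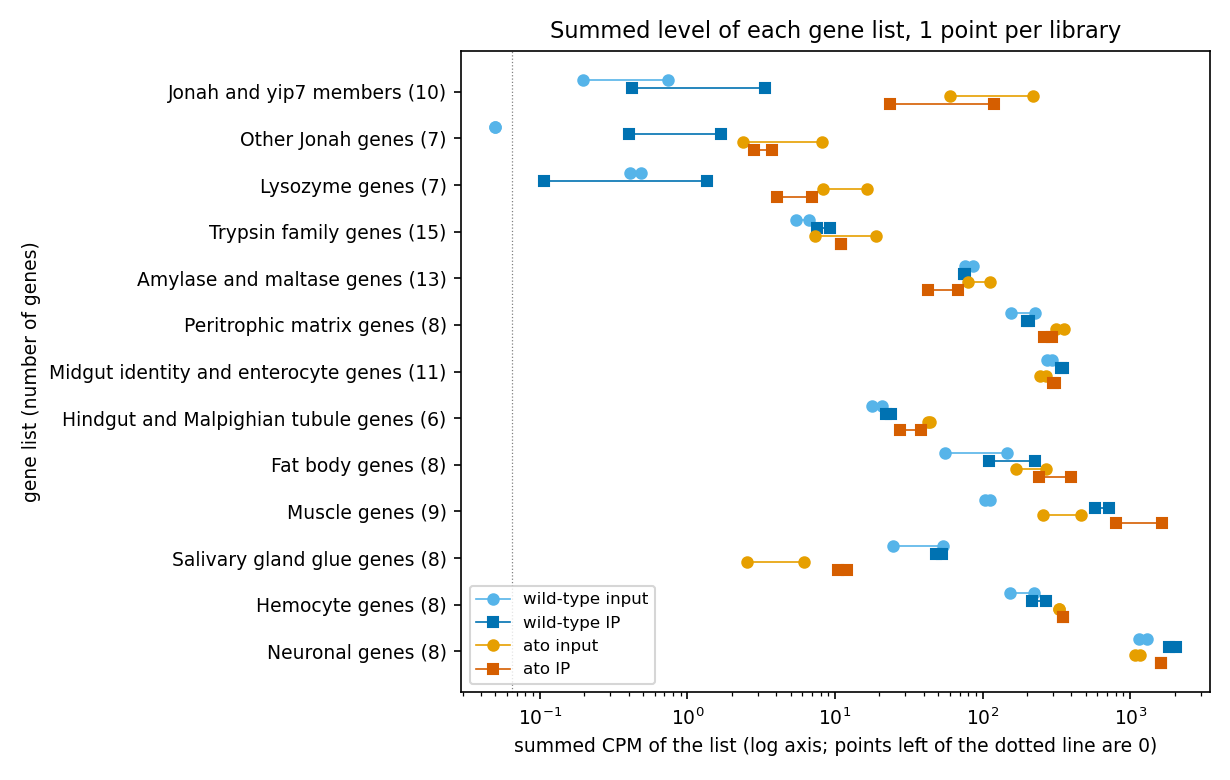
Summed CPM of each gene list (log axis), 1 point per library and lines joining the 2 libraries of a group, with sums of 0 drawn left of the dotted line. The 10 protease genes average 0.466 CPM in the wild-type inputs and 139.8 CPM in the ato inputs, and the midgut identity list lies at 246 to 297 CPM in all 4 inputs. The largest part of that list's sum is esg (mean 113 CPM in wild-type input, 98.5 in ato input). The sum does not show the low genes, such as mex1 (0.0898 and 1.54 CPM).

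Markers of other tissues also differed between genotypes, in part. In ato input over wild-type input the ratio of mean summed levels was 3.33 for 9 muscle genes (8 rose, 0 fell), 2.18 for 8 fat body genes (3 rose), 2.27 for 6 hindgut and Malpighian tubule genes (2 of 3 tested rose) and 1.76 for 8 hemocyte genes (4 rose). It was 1.72 for 7 glial genes (2 rose, 1 fell), 0.918 for the neuronal genes (1 rose) and 0.110 for 8 glue genes of the salivary gland (4 fell). Over all genes tested, 4.64% rose in this comparison. The share of all genes that fell is not given here, so nothing is read from the numbers that fell. Without wild-type input 1 the ratio became 3.96 for fat body and 0.175 for glue genes, and without ato input 1 that of the glue genes became 0.064. The hindgut and tubule sum came mostly from otp (mean 9.37 CPM in wild-type input, 20.9 in ato input) and Irk3 (6.58 and 16.1). The genes byn, Uro and capaR averaged under 1 CPM in the inputs of both genotypes and were not tested. The ratio of ato input 2 to ato input 1 was 0.550 for muscle, 0.630 for fat body, 0.972 for hindgut and tubule, 0.993 for hemocyte and 0.409 for glue genes. Each of these ratios was below 1, where that of the protease sum was 3.66. It was 1.09 for midgut identity, 1.07 for neuronal and 1.14 for glial genes. Lists of other digestive enzymes went both ways. Their ratios were 3.42 for the 7 other Jonah genes, 2.59 for the trypsin family and 1.97 for the lysozymes. They were 0.701 for amylases and maltases, 0.321 for lipases and 0.927 for all 52 genes together. In the IPs these ratios were, in the same order, 1.32, 0.990, 1.72, 0.629, 3.96 and 0.799. Whether the shift differs between these lists and the 10 genes was not tested. The part of tissue other than brain in the protease result was not tested.

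Over the 8 libraries, the genes outside the 10 whose profile was nearest to that of the protease sum were GstD5, Hsp70Ba, Hsc70-2, CG17826, Muc96D, CG10725, CG14572, CG31157, CG7715 and CG31789. Likeness was the root mean square difference between mean-centred log2 CPM values, and it was 1.13 for GstD5, a glutathione S-transferase gene, and 1.45 for CG31789. The 5 protease genes themselves stood at 0.376 (Jon65Aiv) to 1.25 (Jon25Bii), and the median of the other tested genes at 3.42. Since these 5 supplied nearly all of the protease sum in the ato libraries, their closeness to it is built in. Hsp70Ba, an inducible heat shock gene with near-identical copies, had 130 and 153 counts in the ato inputs and 0 in both wild-type inputs. Hsc70-2 had 689 and 1215 counts in the ato inputs and 6 and 0 in the wild-type inputs. These genes shared the gap between genotypes, which follows from their choice by likeness to the protease sum. CG31789 had a larger ratio of ato input 2 to ato input 1 than the other 9, with 18 and 99 counts in the ato inputs, 6 and 46 in the ato IPs, 0 in both wild-type inputs and 0 and 4 in the wild-type IPs.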

How the data were processed

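RNA-seq was deposited by the authors as raw counts per gene and run, a table of 14161 genes and 32 runs. The submitters' processing notes name TopHat2 2.0.12 and featureCounts 1.4.4. Per the file headers, exons of dm3 were the counted features, no strand was used, and reads needed a mapping quality of at least 5. How reads matching several loci were treated is not fully stated. Low entries of 2 outnumbered those of 3 (19755 against 7744), so single counts may not be independent.

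The 4 runs of a library were summed to 8 libraries of 7780123 to 12238648 counts, in 4 groups of 2. One model over all 8 was fitted with edgeR 4.0.16 in R 4.3.3 (filterByExpr, TMM, quasi-likelihood test, Benjamini-Hochberg over 10224 genes, threshold 0.05); its common biological coefficient of variation came to 0.203. It gave IP against input in each genotype, ato against wild type in each fraction, and the difference of ratios. The comparisons share libraries. The test was checked on simulated data with the same dispersion for every gene and with changed genes well above 0. That check does not cover genes at 0 in wild type. CPM values use TMM factors, and positions are those of the deposited table. A fold against a group at 0 is a lower bound from summed counts, with 3 counts as the floor. It covers counting error in the group at 0 only, not the spread between libraries. DESeq2 1.42.0, other scalings, no filter, run 1 alone, a replicate block and leaving out each library were the alternatives.

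The 10 genes and all lists were chosen with earlier results of these data known. From other lists at most 4 called genes per comparison are named, those of largest change, and the 10 genes of nearest profile. No sequences are printed.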

Additional observations from a re-analysis of the deposited data

How the results depend on the processing

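The count of protease genes called higher in ato input was 5 under each alternative run, and nothing is read from it, since the genes were chosen with results known. The log2 ratio of summed levels stayed between 7.01 and 9.48 there and between 3.69 and 7.39 in the IPs when 1 library was left out. For ato IP against wild-type IP, DESeq2's Wald test called 2, and leaving out 1 library gave 2 to 5. For ato IP against ato input, where 0 were called, 1 was called without the low-count filter, and 0 to 3 when 1 library was left out. For wild-type IP against input these were 1 and 0 to 1. Directions turned only in IP against input. With 1 library left out, the log2 difference in ato ranged from -3.18 (without ato IP 2) to 0.17 (without ato input 2) for yip7. Over the same settings it ranged from -2.25 to 0.021 for Jon25Bi, -2.01 to 0.74 for Jon25Bii, -2.63 to 0.27 for Jon65Aiii and -2.27 to 0.28 for Jon65Aiv. Without ato IP 1 it was 0.21 for Jon25Bii and 0.04 for Jon65Aiv. The log2 ratio of summed levels ranged from -2.53 to 0.25 in ato and from -0.13 to 3.27 in wild type. The cause was not tested.

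The count of other digestive genes called ranged, when 1 library was left out, from 2 to 3 in ato against wild-type input, 0 to 3 in ato IP against input, 0 to 1 in ato against wild-type IP and 0 to 2 in wild-type IP against input. DESeq2 called 4 in ato against wild-type input, 2 in ato IP against input and 2 in ato against wild-type IP. Without the filter, or with only the groups compared, 2 were called in ato IP against input. With only the groups compared, or run 1 alone, 0 were called in wild-type IP against input, and run 1 alone also gave 0 in ato against wild-type IP.

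Replicate numbers are shared between groups, and deviations of same-numbered libraries correlated at -0.05 to 0.165 over genes, the highest for ato input and ato IP. Since not every pair exceeded 0.1 and no label states a shared homogenate, the numbers were not taken to pair the libraries. With a replicate block 1 protease gene was called in ato IP against ato input (yip7, log2 -1.40). With the block nested in genotype 3 were called there (yip7 at -1.42) and 1 in wild-type IP against input. Precision is limited by 2 libraries a group, by the gap between ato libraries and by 11 and 29 counts over the wild-type inputs and IPs.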
